A study of Mus musculus with 6 samples.

Results

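Glycolysis splits glucose into pyruvate in the cytosol. The 10 genes listed here encode the main carrier that brings glucose into most cells and enzymes of 9 of the steps that follow, up to the formation of lactate. They were chosen by name: every probe set that the platform annotation assigns to exactly 1 gene symbol, that symbol being Slc2a1, Hk2, Gpi1, Pfkl, Aldoa, Tpi1, Pgk1, Pgam1, Pkm or Ldha. Of these 10 listed genes, 9 had such probe sets, 21 probe sets of 34945 in all and 9 genes of 18193. Gpi1, which converts glucose 6-phosphate to fructose 6-phosphate, had none under that rule and was not analysed here. All 9 genes and all 21 probe sets had a mean signal above the brightest background control, which measured 161.8 signal units.

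The study compared aortic roots of 2 groups of mice on Affymetrix arrays. Klotho-deficient mice were homozygous for a mutant Klotho allele, wild-type mice were homozygous for the normal allele, and both were albino C57BL/6J animals aged 6.0 to 6.5 weeks. The root was dissected by hand and held the aortic valve leaflets, the annulus and part of the wall of the ascending aorta. Each of the 3 arrays per genotype carried RNA pooled from 3 mice, so the replicates are pools and 9 mice stand behind each genotype. Klotho, the protein lost in the mutant, is made mainly in the kidney and is needed for FGF23, a hormone that controls phosphate, to bind its receptor. The mutation is not limited to the root, so local and whole-body effects cannot be told apart. In whole roots, fewer cells of a type and less RNA per cell cannot be told apart either.

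In muscle and connective tissue, glucose enters through facilitative carriers and is trapped by hexokinase. Phosphofructokinase commits it to breakdown, aldolase and triosephosphate isomerase split and even out the carbon skeleton, and the lower enzymes recover energy as ATP before pyruvate kinase and lactate dehydrogenase close the path. Many of these genes are textbook targets of hypoxia-inducible factor (HIF), a transcription factor pair that binds a short core written ACGTG or GCGTG.

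The 250 bases before the annotated start show how unevenly that core is spread over the genes, and 3 windows are printed for contrast: Hk2 and Tpi1, the genes whose genotypes separated in opposite directions, and Ldha, whose first window held the most matches among the windows of these genes (5). Sequences are from RefSeq, build GRCm38.p6, written 5′ to 3′ on the gene's strand, with ACGTG or GCGTG on either strand in capitals; CACGTG is read on both strands and so gives overlapping matches of ACGTG. The windows are chr6:82774455-82774704 (minus strand) for Hk2, chr6:124814159-124814408 (minus strand) for Tpi1 and chr7:46845554-46845803 (plus strand) for Ldha.
Hk2: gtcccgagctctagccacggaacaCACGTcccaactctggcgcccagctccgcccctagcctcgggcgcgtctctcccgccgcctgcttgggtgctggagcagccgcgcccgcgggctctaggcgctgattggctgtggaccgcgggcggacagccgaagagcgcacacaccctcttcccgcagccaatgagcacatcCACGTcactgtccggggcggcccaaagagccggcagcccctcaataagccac
Tpi1: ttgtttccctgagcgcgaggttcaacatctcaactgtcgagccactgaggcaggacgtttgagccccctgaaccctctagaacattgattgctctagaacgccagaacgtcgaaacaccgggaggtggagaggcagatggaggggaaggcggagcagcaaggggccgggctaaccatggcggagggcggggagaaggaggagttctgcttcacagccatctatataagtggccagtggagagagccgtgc
Ldha: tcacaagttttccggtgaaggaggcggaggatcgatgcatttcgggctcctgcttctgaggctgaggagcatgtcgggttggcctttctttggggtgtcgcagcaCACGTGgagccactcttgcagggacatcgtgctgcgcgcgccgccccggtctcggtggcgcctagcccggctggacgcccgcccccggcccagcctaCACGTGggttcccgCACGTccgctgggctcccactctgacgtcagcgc
The Hk2 window had 2 stretches in capitals, the Ldha window 3 and the Tpi1 window 0. Windows of Slc2a1, Pfkl, Pgk1 and Pgam1 had 2, 1, 2 and 3. Those of Aldoa had 1, 1 and 0, those of Pkm 0 and 1, and the second Ldha window 1. Whether these counts go with the genotype differences was not tested. All 9 genes had an entry, 13 windows in total because some have several starts. A core of either spelling was present in 10 of the 13 windows, which belong to 8 of the 9 genes, against 38.6% of all 32817 windows of the same length. That share was not matched for base composition. ACGTG occurred in 8 of the 13 (16.6% of all windows) and GCGTG in 4 (28.1% of all windows). The first 2 Aldoa windows overlap and hold the same site, which is counted in both. Matching letters describe these windows only; no binding was measured.

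Across the 9 genes the genotypes differed little. No gene passed the threshold of 0.05 in limma with Benjamini-Hochberg adjustment over all 18193 genes, where 0.0% of genes passed. At an unadjusted p under 0.05 the members gave 0 calls, and 6.41% of all genes fell below that level. Klotho-deficient minus wild-type log2 differences ran from -0.39 for Tpi1 to 0.33 for Hk2, with 4 above 0, 5 below 0 and a median of -0.01. Over all genes the median was 0.00 and 50.4% lay above 0. All 9 fitted folds stayed within 1.5-fold in either direction, while 18.7% of all genes, and 9.38% of genes with a mean above the background control, lay at or beyond it. Every 95% interval from limma included no change, and over the 9 genes the intervals reached from a fold of 0.55 to a fold of 1.74, so larger changes lay outside the interval of each gene and smaller ones were not resolved with 3 pools per genotype.

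**Figure D1:**
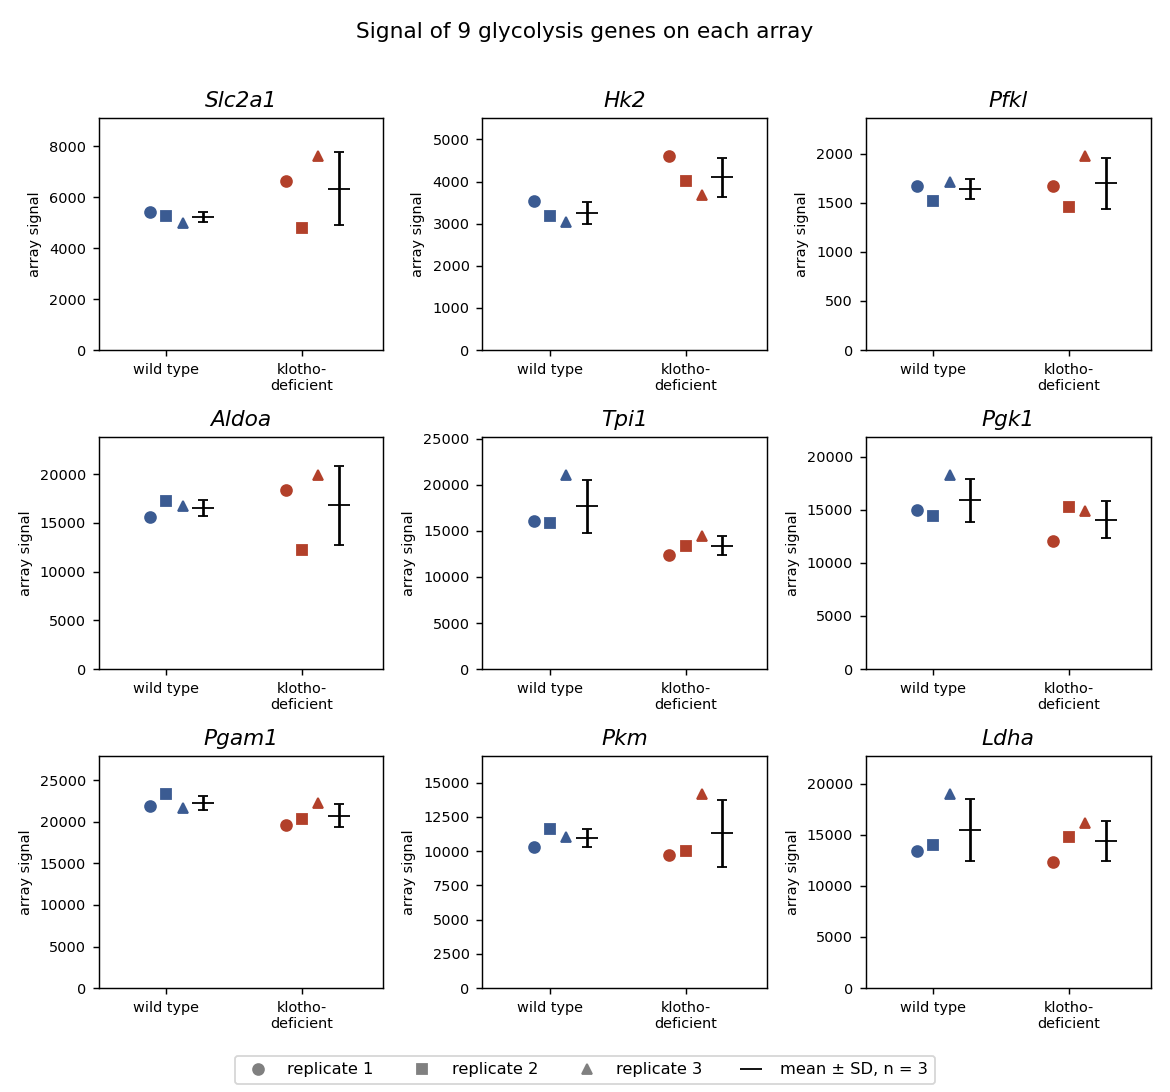
Array signal (linear scale from 0, scaled by the authors) of the brightest probe set of each of the 9 genes; symbols are the 3 pools of each genotype, and the bar is the mean ± SD. In Hk2 all klotho-deficient pools (3684 to 4598) lie above all wild-type pools (3031 to 3543), in Tpi1 they lie below (12381 to 14476 against 15892 to 21019), and in the other 7 genes the genotypes overlap.

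The carrier and the trapping enzyme both had log2 differences above 0, and neither passed the test. Slc2a1 encodes GLUT1, the facilitative glucose carrier found in most cell types; its klotho-deficient signals were 6626, 4776 and 7599 on replicates 1, 2 and 3, and its wild-type signals 5416, 5262 and 5004. The wild-type pools sat close together (5227 ± 208, SD, n = 3), and the klotho-deficient pools spread around them (6334 ± 1434), replicate 2 lying below all 3 wild-type pools and the others above. The log2 difference of 0.25 ± 0.22 (SE, limma adjusted p = 0.866) corresponds to a fold of 1.19 with a 95% interval of 0.82 to 1.74. It was 0.11 without klotho-deficient replicate 3 and 0.44 without klotho-deficient replicate 2, so these pools set its size. Its 3 probe sets gave log2 differences of 0.18, 0.25 and 0.25 and ordered the klotho-deficient pools in the same way.

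Hk2 encodes hexokinase 2, the insulin-responsive isoform of muscle and fat that phosphorylates glucose on entry. It measured 4598, 4015 and 3684 in klotho-deficient pools and 3543, 3186 and 3031 in wild-type pools. The lowest klotho-deficient pool therefore stood above the highest wild-type pool, by 4.0% of its signal. Means of 4099 ± 463 and 3253 ± 263 (SD, n = 3) gave a fold of 1.26 (95% interval 0.93 to 1.70) and a log2 difference of 0.33 ± 0.18 (limma adjusted p = 0.808). After quantile normalization, which gives every array the same distribution, the log2 difference was 0.32 and the genotypes overlapped. A term for the arrays that lacked Y-linked transcripts, klotho-deficient replicates 2 and 3, leaves klotho-deficient replicate 1 alone against the wild-type pools. In that fit the log2 difference of Hk2 was 0.50. Among the 9 genes Hk2 and Tpi1 were the 2 without overlap, or 22.2%, against 13.5% of all 18193 genes (6.63% higher and 6.84% lower) and 14.7% of those above background.

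Pfkl, the liver-type subunit of phosphofructokinase, measured 1672, 1455 and 1973 in klotho-deficient pools and 1676, 1524 and 1715 in wild-type pools. The wild-type range lies inside the klotho-deficient range, with a fold of 1.03 (95% interval 0.75 to 1.42) and a log2 difference of 0.04 ± 0.19 (limma adjusted p = 0.980). Its dimmer probe sets gave log2 differences of 0.16 and 0.14, both with overlap, and the sign turned without klotho-deficient replicate 3 (-0.07).

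Aldoa encodes aldolase A, the muscle-type enzyme that splits fructose bisphosphate into triose phosphates. Klotho-deficient pools measured 18373, 12181 and 19853 and wild-type pools 15606, 17214 and 16741. Replicate 2 was the lowest of all 6 arrays and the other klotho-deficient pools the highest, so the means of 16802 ± 4070 and 16520 ± 826 (SD, n = 3) hardly differed (log2 difference -0.01 ± 0.24, limma adjusted p = 0.998). Of its 5 probe sets, the 4 bright ones gave log2 differences from -0.04 to 0.02. The fifth was dimmer, with 2375, 1941 and 2592 in klotho-deficient and 1179, 1762 and 1667 in wild-type pools. Those genotypes did not overlap (log2 difference 0.60 ± 0.24, limma adjusted p = 0.835 over all 34945 probe sets), so the probe sets of Aldoa disagree. All 5 carry the suffix that Affymetrix gives to probe sets in which some probes are identical or very similar to other sequences. Aldoa, Tpi1 and Pgk1 have processed copies in the genome, so signal from a copy cannot be told apart here.

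Tpi1 encodes triosephosphate isomerase, which interconverts the triose phosphates so that all carbon can go on. Its klotho-deficient signals were 12381, 13324 and 14476 and its wild-type signals 16103, 15892 and 21019. All 3 klotho-deficient pools lay below all 3 wild-type pools, and wild-type replicate 3 stood well above the rest. Means were 13394 ± 1049 and 17671 ± 2901 (SD, n = 3), a fold of 0.76 (95% interval 0.55 to 1.06) and a log2 difference of -0.39 ± 0.19 (limma adjusted p = 0.796). The other probe sets pointed the same way with overlap, at log2 differences of -0.32 and -0.22. Without wild-type replicate 3 the log2 difference was -0.26, and after centring each array on its median the genotypes overlapped (-0.40). Over 16 alternative settings the log2 difference stayed between -0.50 and -0.26 and its adjusted p between 0.532 and 0.989. The -0.50 came with the Y-linked term, which sets klotho-deficient replicate 1 alone against the wild-type pools.

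**Figure D2:**
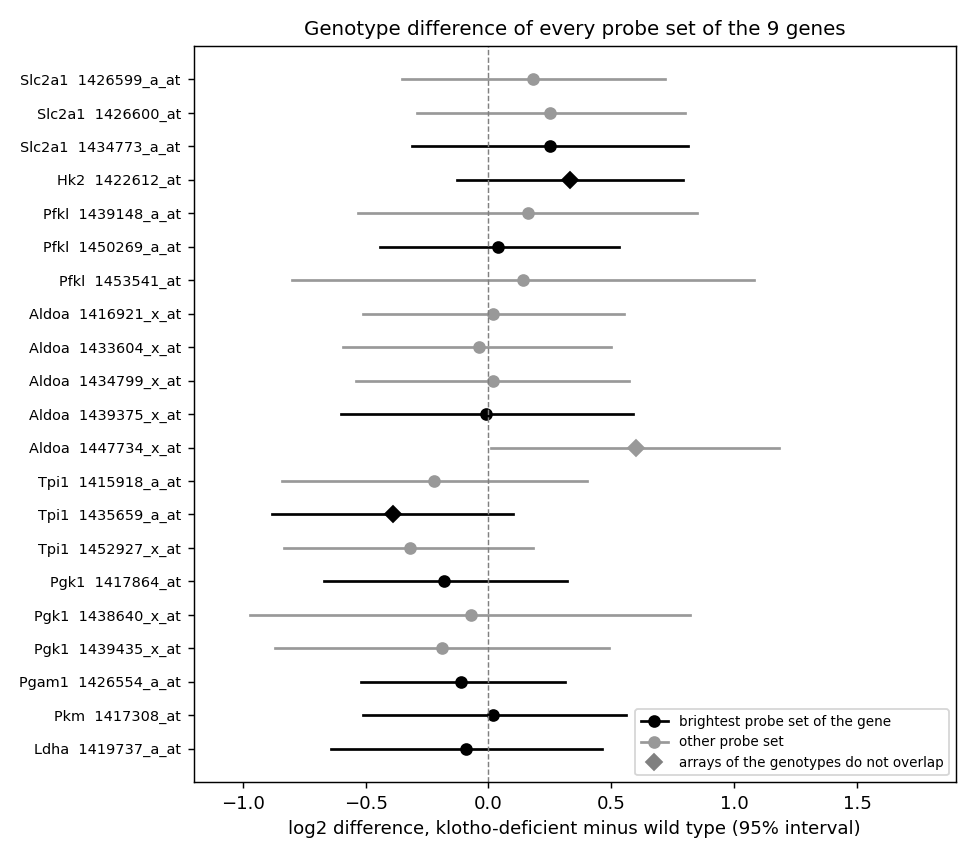
Log2 difference (klotho-deficient minus wild type) with its 95% limma interval for all 21 probe sets of the 9 genes; black marks the brightest probe set of a gene and diamonds those whose genotypes do not overlap. Only the dimmest Aldoa probe set, the last of its 5 (0.01 to 1.18), has an interval that leaves out 0, and its 4 brighter companions run from -0.04 to 0.02.

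Of the 21 probe sets, 3 did not overlap between genotypes (14.3%, against 12.6% of all 34945 probe sets): those of Hk2 and Tpi1 above and the dimmest of Aldoa. None passed over all probe sets, of which 0.0% passed, and 1 of the 21 had an unadjusted p under 0.05 in limma against 5.94% of all.

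The ATP-yielding and closing steps overlapped between genotypes in each case. Pgk1 encodes phosphoglycerate kinase 1, an X-linked enzyme that makes the first ATP of the pathway; it measured 12032, 15219 and 14900 in klotho-deficient pools against 15000, 14417 and 18225. Klotho-deficient replicate 1 was lowest and wild-type replicate 3 highest, and the middle 4 arrays lay within 14417 to 15219. The log2 difference of -0.18 ± 0.20 (limma adjusted p = 0.892) shrank to -0.07 without either of those arrays, and the other probe sets gave -0.19 and -0.07.

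Pgam1, phosphoglycerate mutase 1, had the smallest SE of the 9 genes and measured 19606, 20376 and 22220 in klotho-deficient pools against 21867, 23282 and 21703. A fold of 0.93 (95% interval 0.71 to 1.22) and a log2 difference of -0.11 ± 0.16 (limma adjusted p = 0.920) describe it. Pkm, pyruvate kinase of muscle and most other tissues, measured 9708, 10032 and 14130 against 10275, 11606 and 11016. Klotho-deficient replicate 3 was the highest array and the other klotho-deficient pools the lowest. The resulting log2 difference was 0.02 ± 0.21 (limma adjusted p = 0.991) and became -0.15 without that replicate. Pkm yields alternatively spliced forms, and whether its probe set separates them was not tested.

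Ldha encodes the lactate dehydrogenase subunit that favours turning pyruvate into lactate. Its signals were 12312, 14730 and 16174 in klotho-deficient and 13433, 14003 and 18938 in wild-type pools, with wild-type replicate 3 highest and klotho-deficient replicate 1 lowest, as for Tpi1 and Pgk1. The log2 difference was -0.09 ± 0.22 (limma adjusted p = 0.952) and changed sign when either extreme was left out (0.06 without wild-type replicate 3, 0.02 without klotho-deficient replicate 1).

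**Figure D3:**
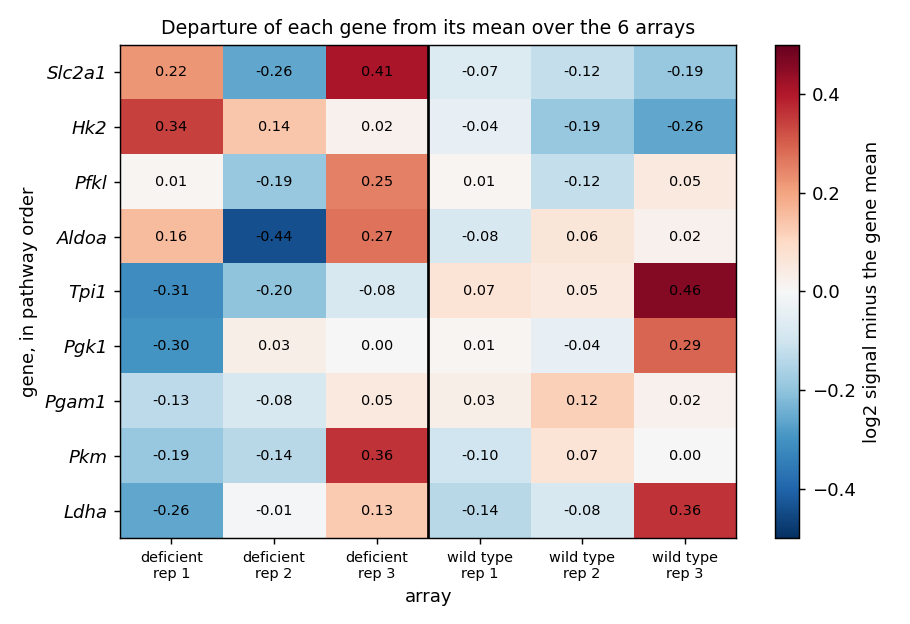
Log2 signal of each of the 9 genes on each array minus the gene's mean over the 6 arrays, with genes in pathway order and the line parting the genotypes. Wild-type replicate 3 is high in Tpi1 (0.46), Ldha (0.36) and Pgk1 (0.29), and klotho-deficient replicate 3 is high in Slc2a1 (0.41), Pkm (0.36), Aldoa (0.27) and Pfkl (0.25).

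The genes did not move as a block from array to array. Over the 36 pairs of genes the Pearson correlation across the 6 arrays, which share their pools and scaling, had a median of 0.22 and ran from -0.91 for Hk2 with Tpi1 to 0.90 for Pgk1 with Ldha. Tpi1, Pgk1 and Ldha formed a set that rose and fell together (0.86 for Tpi1 with Pgk1 and 0.75 for Tpi1 with Ldha), and Slc2a1, Pfkl and Aldoa formed another (0.77 to 0.80). Hk2 ran opposite to Tpi1, Pgam1 (-0.83), Pgk1 (-0.80) and Ldha (-0.67). Averaged over the 9 genes, the centred log2 signal was -0.05, -0.12 and 0.16 in klotho-deficient pools and -0.03, -0.03 and 0.08 in wild-type pools, replicate 3 being the highest in both genotypes. The within-genotype SD of the log2 signal was 0.08 to 0.27 for the 9 genes, with a median of 0.18 against 0.28 for all genes above background. Profiles most like the average of the 9 genes over the 6 arrays, among 13568 other genes above background, were those of Tmem248 (r = 0.997), Bag2 (0.996), P3h3 (0.994), 3110082I17Rik (0.991) and Cracr2b (0.991), given as descriptions over 6 points.

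Other measurements moved with single arrays. Wild-type replicate 3, the highest array for Tpi1, Pgk1 and Ldha, also had the highest endothelial markers: 8 of 8 markers were above background, 7 of the 8 were lower in klotho-deficient roots by the fitted difference, none was at 0, and their signals summed to 65260. The remaining wild-type sums were 38500 and 40522, and the klotho-deficient sums ran from 35199 to 43104. Their part in the Tpi1 result was not tested. The same array stood apart in Gapdh, the glycolytic dehydrogenase that was read from 3 control probe sets. Dividing its 3′ by its 5′ signal gave 7.18 there, while the remaining 5 arrays gave 3.23 to 4.08; what lies behind this ratio was not tested. Its 3′ probe set gave 26786, 24357 and 23291 against 25055, 23091 and 28506, overlapping, with a log2 difference of -0.04.

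Macrophage, red cell, smooth muscle and fibroblast markers had summed signals that overlapped between genotypes, as did cardiomyocyte, skeletal muscle and adipocyte markers. Of the 9 skeletal muscle markers, 6 above background, 7 had a log2 difference above 0 (median 0.31). Without overlap, 3 of the 9 were higher, against 6.63% of all genes, and Myh4 among them had a mean below background. Endothelial markers had 2 lower without overlap (6.84% of all genes), and cardiomyocyte and fibroblast markers 1 higher each. The summed skeletal muscle signal was 1819 to 2737 in klotho-deficient and 1318 to 2110 in wild-type pools. All 4 measured adipocyte markers, each above background, had a log2 difference below 0 (median -0.59), with sums of 21001 to 35707 and 30152 to 36623. No list had a called gene, and the part of these cells in the values of Hk2, Pfkm and Slc2a4, isoforms of muscle or fat, was not tested. Y-linked transcripts were below background on klotho-deficient replicates 2 and 3 and above it on the other 4 arrays, so pools lacking them were found in 1 genotype. With a term for those arrays, which leaves klotho-deficient replicate 1 alone against the wild-type pools, the members' median log2 difference was -0.17. It was -0.01 without the term, and 4 of the 9 genes lay above 0 in both fits. The part of the Y-linked difference between pools in the values of the 9 genes was not tested. The mutated gene, Kl, was read close to background (138, 217 and 189 against 167, 185 and 202) and does not check the labels.

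Related genes from 9 further lists show the surroundings of the pathway: 92 of 101 listed genes were measured, and 84 of those had a mean above background. None passed in limma over all genes, in either direction. At an unadjusted p under 0.05, 4 were higher and 3 lower, 7.61% of the 92 against 6.41% of all genes (3.25% higher and 3.16% lower). Without overlap between genotypes, 11 were higher and 5 lower, 17.4% against 13.5%, and 4 of these 16 genes had a mean below the background control. After quantile normalization the split was 11 and 7, with 14.2% of all genes not overlapping, and after median centring 9 and 3, with 10.6%. The median log2 difference over the 92 genes was -0.03.

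**Figure D4:**
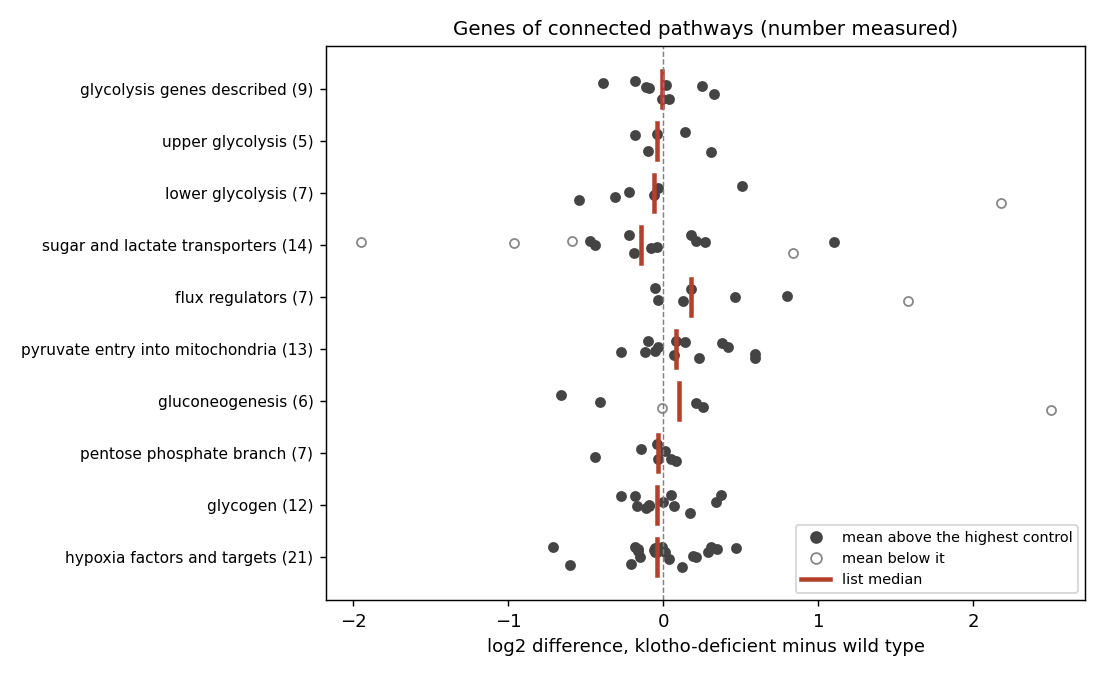
Log2 difference of each measured gene (points) in the 9 genes described and 9 connected lists, with the list median (bar); open points have a mean signal below the highest control. List medians lie between -0.14 (sugar and lactate transporters) and 0.18 (flux regulators), and the far points at 2.5, 2.18, 1.58 and -1.95 are dim genes.

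Isoenzymes of glycolysis itself had 0 of 5 members of the upper list and 0 of 7 of the lower list past the threshold, with median log2 differences of -0.04 and -0.06. Eno2, the enolase isoform best known from neurons, measured 3478, 3488 and 3705 in klotho-deficient and 2613, 2700 and 2228 in wild-type pools. Every klotho-deficient pool exceeded every wild-type pool, also after quantile normalization and after median centring, with a log2 difference of 0.51 ± 0.17 (limma adjusted p = 0.731) that remained at 0.42 to 0.56 with any 1 array left out. Pfkm, the muscle-type phosphofructokinase subunit, gave 2343, 2287 and 2830 against 2115, 2027 and 1845, also without overlap except after median centring (log2 difference 0.31 ± 0.18, limma adjusted p = 0.813). Pgam2, the muscle-type mutase, was 0.54 lower on the log2 scale (-0.54 ± 0.34, limma adjusted p = 0.823) with overlap, and -0.24 without klotho-deficient replicate 1. It was lowest in each genotype on replicate 1. Cardiomyocyte markers, 14 of 14 above background and none at 0, had their lowest summed signals on the same arrays, 92042 and 82592, against 120338 to 156023 on the other 4; their part in the Pgam2 values was not tested.

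Transporters of sugar and lactate had a median log2 difference of -0.14. Slc2a4, the insulin-responsive GLUT4 of muscle and fat, measured 815, 669 and 886 in klotho-deficient pools and 539, 565 and 160 in wild-type pools. No pools overlapped, but wild-type replicate 3 lay below the background control of 161.8, so its level there has only an upper bound. The size of the fitted log2 difference, 1.10 ± 0.51 (limma adjusted p = 0.777), rests on that reading and was 0.51 without it. The other, dimmer Slc2a4 probe set gave 1.75 ± 0.85, also without overlap. Its wild-type mean of 188 was close to the background control, so the size of that difference is uncertain too. Slc16a1, the lactate and pyruvate carrier MCT1, measured 5767, 5183 and 4636 against 6972, 6652 and 7994, lower in all klotho-deficient pools (-0.47 ± 0.18, limma adjusted p = 0.763) and under both other scalings. Its chaperone Bsg, basigin, had a log2 difference of -0.44 ± 0.22 (limma adjusted p = 0.796), with overlap, and -0.28 without wild-type replicate 3. Of the 14 transporters measured, 5 had a log2 difference above 0 and 9 below it.

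Regulators of flux (median log2 difference 0.18 over 7 genes) and genes for the entry of pyruvate into mitochondria (0.08 over 13 genes) gave no calls. Arrdc4, a glucose-responsive arrestin relative of Txnip that limits glucose uptake, measured 1108, 1177 and 1257 against 615, 516 and 977 (log2 difference 0.80 ± 0.27, limma adjusted p = 0.735). Its other probe set gave 0.14 with overlap, so the probe sets disagree, and Txnip itself was -0.03 ± 0.26. Pfkfb3, which makes the activator of phosphofructokinase, was 0.46 ± 0.27 with overlap (0.26 to 0.64 with 1 array left out). Pdk1, a kinase that switches off pyruvate dehydrogenase, measured 1458, 1588 and 2349 against 1023, 1340 and 1161 (log2 difference 0.59 ± 0.25, limma adjusted p = 0.770). It was 0.38 to 0.73 with 1 array left out, and its other probe sets ran from 0.04 to 0.50. Pdk3, a kinase of the same family, did not overlap either (0.38 ± 0.19, limma adjusted p = 0.794), and was 0.25 without wild-type replicate 3. Pdk4, the family member induced by fasting, was 0.59 ± 0.38 with overlap (0.29 to 0.97 with 1 array left out, the highest without wild-type replicate 3). Pdhx, a structural part of pyruvate dehydrogenase, did not overlap (0.42 ± 0.19, limma adjusted p = 0.770) except after median centring.

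HIF and its targets outside glycolysis gave a median log2 difference of -0.04 over 21 genes, 9 above 0 and 12 below. Hif1a, the oxygen-regulated subunit, measured 7822, 9656 and 11034 against 8987, 9681 and 5229, overlapping, with a log2 difference of 0.29 ± 0.30 (limma adjusted p = 0.885) that was 0.01 without wild-type replicate 3. Its 3 other probe sets gave -0.18, 0.24 and 0.24. P4ha1, a collagen prolyl hydroxylase, measured 1879, 1995 and 1940 against 3196, 2850 and 3509. This was the largest log2 difference among the 21 genes (-0.71 ± 0.17, limma adjusted p = 0.670), and its other probe set gave -0.44, also without overlap. Vegfa, the angiogenic growth factor, was -0.60 ± 0.36 with overlap, and -0.91 to -0.35 with 1 array left out, the lowest without wild-type replicate 3. The dimmer Vegfa probe set gave -0.25 ± 0.19, lower without overlap. Bnip3, a mitophagy receptor, was 0.47 ± 0.26 (0.33 to 0.65), also with overlap.

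No gene of the branches off the pathway was called. Rpia, an isomerase of the pentose phosphate branch, measured 1998, 2123 and 2480 against 2716, 2837 and 3441 (-0.44 ± 0.19, limma adjusted p = 0.770) and overlapped after median centring. The other 6 pentose phosphate genes lay between -0.14 and 0.08 by their brightest probe sets. Dimmer probe sets of Rpe gave 0.01 and 0.53 and those of Pgd -0.02, 0.12 and 0.30, all with overlap. Glycogen genes had a median of -0.04 over 12 members, 6 above 0 and 6 below, none without overlap. Phka1 (0.37 ± 0.26, or 0.22 to 0.60 with 1 array left out) and Gbe1 (0.34 ± 0.19) were among those above 0, and Phkb (-0.27 ± 0.24), Pygm (-0.18 ± 0.18) and Pygl (-0.17 ± 0.25) among those below. Of 6 gluconeogenic genes, 3 had a log2 difference above 0 and 3 below, with a median of 0.10. Only 4 of the 6 had a mean above background. G6pc (2.5, higher without overlap) and Fbp1 (-0.01) had means below it, so the median includes dim genes and its sign is uncertain. The genes above background lay on both sides of 0. Pck1 was -0.66 ± 0.58 (-1.15 to -0.23 with 1 array left out), Fbp2 -0.41 ± 0.27 (-0.59 to -0.21), Pck2 0.26 ± 0.24 (0.16 to 0.43) and G6pc3 0.21 ± 0.30 (-0.08 to 0.45), all overlapping.

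A constant factor per array leaves the ratio of related genes on that array unchanged; quantile normalization does not. Of 7 ratios, compared by exact two-sided permutation tests whose smallest possible p with 3 pools against 3 is 0.1, none passed after Benjamini-Hochberg adjustment. Pfkl over Pfkm was -0.49, -0.65 and -0.52 on the log2 scale in klotho-deficient and -0.34, -0.41 and -0.11 in wild-type pools, lower in all 3 (difference -0.27, exact permutation p = 0.1, adjusted p = 0.35). As the mean over probe sets it was -0.20 (exact permutation p = 0.5), without that separation. Slc2a1 over Slc2a4 was lower in all 3 klotho-deficient pools as well (2.99 ± 0.14 against 3.84 ± 0.98, SD, n = 3; difference -0.85, exact permutation p = 0.1, adjusted p = 0.35), but it uses the Slc2a4 reading below background, and the difference was -0.29 without wild-type replicate 3. The other 5 ratios overlapped, with differences of 0.43 for Pgam1 over Pgam2 (0.18 without klotho-deficient replicate 1), 0.19 for Hk2 over Hk1 (0.07 without that array), 0.09 for Aldoa over Aldoc, 0.08 for Pfkl over Pfkp and -0.03 for Ldha over Ldhb.

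**Figure D5:**
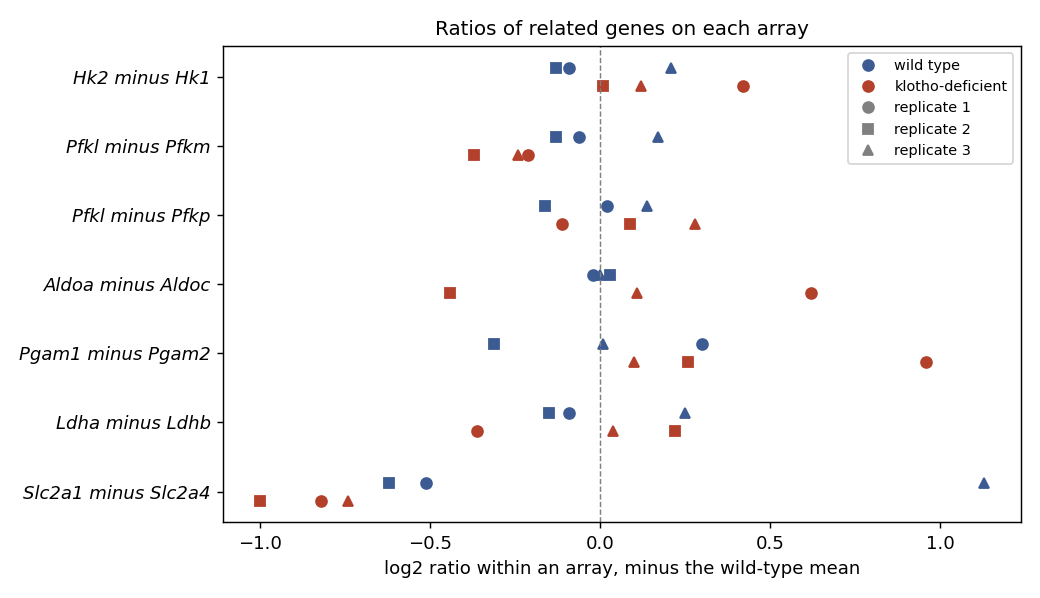
Log2 ratio of 2 related genes on each array, minus the wild-type mean of that ratio; blue points are wild-type and red points klotho-deficient pools, with symbols for replicates. Pfkl over Pfkm and Slc2a1 over Slc2a4 are lower in all 3 klotho-deficient pools, wild-type replicate 3 stands apart in the latter, and the other 5 ratios overlap.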

How the data were processed

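RNA of 6 pooled aortic roots was amplified with the NuGEN WT-Ovation Pico kit, labelled with biotin and hybridised, per the labels' protocols. The deposited values are linear intensities that the authors had already scaled: the 2% trimmed mean was 1500.0 on each array, and medians ran from 425.6 to 556.6. The submitters' processing notes name RMA, whose output is usually log2; how the linear scale was reached is not known, and its version and a genome build are not given in the sources used here. Of 45101 probe sets, 64 were controls, 34945 had 1 gene symbol, 932 several and 9160 none. Array number limits the precision.

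Intensities were taken as log2 with no pseudocount. The brightest probe set stood for each of 18193 genes. A linear model per gene (limma 3.58.1 under R 4.3.3; functions lmFit, eBayes) set 3 arrays of each genotype against each other, with two-sided tests, a threshold of 0.05 and Benjamini-Hochberg adjustment over all genes or all 34945 probe sets. Intervals use the moderated 6.1 degrees of freedom. Background was the highest of 27 Bacillus control probe sets, 161.8. The members, lists, tests and alternatives were chosen with earlier results of these data known. Named were all members, the partners in ratios, Gapdh, Hif1a and Kl, and the 5 genes most like the members' mean profile. Per list, up to 3 genes per direction of smallest unadjusted p with a mean above background were eligible, and only some of these are described. Among those left out, Ero1a (log2 difference 0.21) and Car9 (-0.18), both in the HIF list, did not overlap between genotypes. Others were named after their values were seen. On simulated data with 200 changed genes, 9.0% were recovered at a log2 change of 1, 36.9% at 1.5, 64.3% at 2.5 and 81.2% at 4. Of 2046 calls, 132 were false. The changed genes were drawn from all genes, whose median within-genotype SD was 0.34 against 0.18 for the 9 genes. These rates therefore do not describe the 9 genes, and changes below 1 were not simulated. Alternatives covered scaling, offset, dim genes, priors, array weights, the probe set rule, a replicate block, a Y-linked term and each array left out.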

Additional observations from a re-analysis of the deposited data

How the results depend on the processing

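No member passed the threshold under any of the 16 alternatives (lowest limma adjusted p 0.527), nor did any gene of the connected lists. Over all genes the main count of 0 (1166 at an unadjusted p under 0.05) became 1 with dim genes left out, 1 with an offset of 16, 1 with array weights (Dbp in each) and 2 with a trended and robust prior (Dbp and Sphk2). It ranged from 0 to 1 with an array left out, the 1 being Eif2s3y, a Y-linked gene, without klotho-deficient replicate 1. Hk2 kept a log2 difference between 0.24 and 0.50, Slc2a1 between 0.08 and 0.44, Pgk1 between -0.39 and -0.07 and Pgam1 between -0.18 and -0.02. With the Y-linked term the difference is that of klotho-deficient replicate 1 alone against the wild-type pools. That setting gave the 0.50 of Hk2, the -0.39 of Pgk1 and the -0.18 of Pgam1. Signs turned for members near 0, and the cause was not tested: Pfkl was -0.04 without replicate 3 of both genotypes and -0.07 to 0.15 with an array left out. Aldoa was 0.07 after quantile normalization, 0.03 with array weights, 0.12 as the mean over probe sets, 0.15 with the Y-linked term and up to 0.21 without klotho-deficient replicate 2 (-0.14 to 0.21 with an array left out). Pkm was -0.06 with array weights, -0.17 with the Y-linked term, -0.15 without replicate 3 of both genotypes and -0.15 to 0.12 with an array left out, and Ldha -0.19 to 0.06. Of the ratios, Pfkl over Pfkp was -0.01 without klotho-deficient replicate 3 (-0.01 to 0.18 with an array left out), Aldoa over Aldoc was -0.44 as the mean over probe sets and -0.17 without klotho-deficient replicate 1 (-0.17 to 0.36), and Ldha over Ldhb was 0.05 without replicate 3 of both genotypes and -0.16 to 0.13 with an array left out. The 2 members without overlap became 1 after quantile normalization (Tpi1; 14.2% of all genes), 1 after median centring (Hk2; 10.6%) and 1 as the mean over probe sets (Hk2; 12.8%). They became 4 without klotho-deficient replicate 2 (Slc2a1, Hk2, Aldoa and Tpi1; 24.0% of all genes), 4 without klotho-deficient replicate 3 (Hk2, Tpi1, Pgam1 and Pkm; 29.4%) and 4 without replicate 3 of both genotypes (42.5%), ranging from 2 to 4 with an array left out. Settings that alter only the fit give no value for ratios or overlap. Correlations of same-numbered deviations were 0.14, -0.01 and 0.16, and 4 of 6 arrays correlated best with their own number. These values do not settle whether replicate numbers pair the arrays. With a replicate block 0 members passed (Hk2 adjusted p = 0.746 and Tpi1 0.738, limma). Signal over background did not limit the 9 genes, all of which lay above the controls.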
